A study of Mus musculus with 9 samples.

Results

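Cd2, Cd5 and Cd6 encode surface proteins that most T cells carry beside the T cell receptor, and they are described here in 3 subsets of mouse γδ T cells. The genes were chosen because earlier work on the same arrays had shown Cd2 and Cd5 lower in intraepithelial lymphocytes (IELs), so their differences between IELs and the other subsets are given as a description and were not tested. Each gene has 1 array row that names it alone, so 3 of the 22180 genes measured are described, and no other row names them. The γδ T cells were from C57BL/6 mice, and their total RNA was measured on 9 microarrays, 3 for each subset. IELs were taken from the intestinal epithelium, and the array descriptions point to the small intestine. The source of both Naive-like and Type-1 cells was peripheral lymph nodes (axillary, brachial, inguinal). Tissue and subset therefore cannot be told apart in any comparison with IELs, and the methods differed too, since IELs were shaken off the tissue at body temperature with a reducing agent and EDTA and passed through a Percoll gradient, whereas lymph nodes were mashed. The sources used here do not give the age or sex of the mice, the sorting gates, or whether an array holds 1 mouse or a pool. An antibody to CD5 was in the staining panel, and whether CD5 served as a gate is not stated. The arrays of a subset are labelled biological replicates, and nothing more is stated of their source, so the spread behind each p-value is that of these samples alone and may be partly technical.

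CD2 is an adhesion molecule of the immunoglobulin family that in mice binds CD48 on neighbouring cells, and its long cytoplasmic tail recruits adaptors that link the contact site to the actin cytoskeleton. CD5 and CD6 are related receptors with scavenger receptor cysteine-rich domains, encoded side by side in the genome, and their tails assemble signalling complexes that tune the response of the T cell receptor. CD5 is best known as a brake that is set in proportion to receptor signalling, and CD6 binds ALCAM on antigen-presenting and epithelial cells. Natural intestinal IELs are known for lacking several surface molecules of conventional T cells.

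The labels could be checked only in part, since the γδ receptor constant region genes had no row of their own among those used. Of the γδ-related genes listed, Sox13 and Blk were measured, and neither passed the limma test in any comparison (at an unadjusted threshold of 0.05, Blk did in both comparisons with IELs, and with the replicate number as a block it passed in both, with adjusted p = 0.0375 against Naive-like and 0.0404 against Type-1 cells). All 5 Type-1 markers (Tbx21, Ifng, Il2rb, Klrb1c, Cxcr3) were higher in Type-1 than in Naive-like cells and passed the test. IELs carried these markers too, and against Naive-like cells all 5 rose there by the limma test (median 1.77). Between IELs and Type-1 cells only Ifng (1.22 ± 0.28) and Klrb1c (-1.26 ± 0.32) passed, in opposite directions. The mean of the 5 ran from 7.60 to 7.90 over the IEL arrays and from 7.75 to 8.07 over the Type-1 arrays. They thus set Type-1 cells apart from Naive-like cells, but as a set not from IELs. All 5 IEL markers (Itgae, Gzmb, Gzma, Cd8a, Cd160) passed as higher in IELs than in each lymph node subset. Of 4 Naive-like markers Ccr7 and Lef1 were measured, and both fell in IELs against each lymph node subset. Neither passed between Type-1 and Naive-like cells, with differences of -0.73 ± 0.29 (adjusted p = 0.671) and -0.87 ± 0.25 (adjusted p = 0.363). Both were lower in Type-1 cells by their means and lay under an unadjusted p of 0.05 by the limma test. Lef1 read 9.20 to 9.41 on the Naive-like and 8.11 to 8.74 on the Type-1 arrays. The defining T cell genes Cd3d, Cd3e and Cd3g had log2 means of 10.61 to 12.00 in every subset. Of all genes 5.19% passed the limma test (adjusted p under 0.05) between IELs and Naive-like cells, 3.57% higher and 1.62% lower in IELs. Between IELs and Type-1 cells 5.14% passed, 3.73% higher and 1.41% lower in IELs. Within the lymph nodes 0.284% passed, 0.212% higher and 0.0721% lower in Type-1 cells. Single arrays weighed on these counts: the IEL to Type-1 comparison had 1140 genes, but 732 or 724 without IEL replicate 2 or 3, and the comparison within the lymph nodes had 63, but 34 without Naive-like replicate 3.

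Of the 3 genes, Cd5 has an entry among the RefSeq promoter sequences used (GRCm38.p6), which is shown because Cd5 differed more than its neighbour Cd6 and a promoter is where transcription factors meet a gene's start. The 198 bases printed lie at chr19:10739027-10739224, minus strand, just beyond the outermost annotated end of the gene, so they hold no exon of it. Capitals mark the ETS core letters GGAA, read on both strands, and the E-box letters CANNTG.
Cd5: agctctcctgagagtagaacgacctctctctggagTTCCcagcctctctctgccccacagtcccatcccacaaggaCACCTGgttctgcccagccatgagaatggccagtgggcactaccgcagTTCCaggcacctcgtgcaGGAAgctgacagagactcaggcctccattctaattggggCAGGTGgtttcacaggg
The stretch held 3 ETS cores and 2 E-boxes, which did not overlap one another. Among 32851 RefSeq promoter windows of the same length and place, 39.6% held at least 3 ETS cores and 24.0% at least 2 E-boxes. The RUNX letters TGNGGT occurred 1 time, as they did at least once in 33.9% of the windows, and the TCF/LEF letters CTTTG and the GATA letters AGATAA did not occur, where 42.0% and 8.3% of windows held them. Such matches are letters in a window, chosen after the sequence was seen, and show no binding.

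Cd2 was the most sharply divided of the 3 genes. Its log2 value was 3.94, 4.39 and 4.37 on the IEL arrays (replicates 1 to 3), 8.32, 8.60 and 8.48 on the Naive-like arrays, and 8.82, 8.66 and 8.64 on the Type-1 arrays. The IEL arrays were all low and the lymph node arrays all high, and a gap of 3.93 separated the highest IEL array from the lowest lymph node array. The difference between IELs and Naive-like cells was -4.23 ± 0.20 (standard error), an 18.8-fold lower level in IELs, and that between IELs and Type-1 cells was -4.47 ± 0.20, or 22.2-fold. Among all 22180 differences these had rank 4 and rank 6 from the lowest. The subset means were 4.23 ± 0.26 (SD, n = 3) in IELs, 8.47 ± 0.14 in Naive-like and 8.71 ± 0.10 in Type-1 cells. In bulk RNA such as this, fewer cells with the transcript and less transcript per cell cannot be told apart.

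The table has no detection calls, so 20 genes of unrelated tissues, such as those of lens, pituitary and heart muscle, were used as a rough guide to silent rows. Their values ran from 2.36 to 5.71 with a median of 3.49 and a 90th percentile of 4.79. The Cd2 values of all 3 IEL arrays lay inside that range and under its 90th percentile, and above 36.1% to 48.1% of all genes on their own array. On the lymph node arrays Cd2 stood above 96.1% to 97.8% of genes. Rows differ in probe response, and the RMA values compress differences of dim genes, so the fold values of Cd2 may be understated.

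Cd5 had a similar shape with a higher level left in IELs. The IEL arrays read 5.20, 5.22 and 5.70, the Naive-like arrays 9.19, 8.90 and 9.45, and the Type-1 arrays 8.16, 8.72 and 8.98. All IEL arrays were again below all lymph node arrays, by a gap of 2.46. Cd5 was lower in IELs than in Naive-like cells by a log2 difference of -3.81 ± 0.25, or 14.0-fold, and lower than in Type-1 cells by -3.25 ± 0.25, or 9.5-fold. Its means were 5.37 ± 0.28 (SD, n = 3) in IELs, 9.18 ± 0.28 in Naive-like and 8.62 ± 0.42 in Type-1 cells. All 3 IEL values lay above the 90th percentile of the unrelated tissue genes (4.79). On the IEL arrays the highest value of those genes was 5.31, with replicates 1 and 2 of Cd5 below it and replicate 3 above. Cd5 stood above 62.2% to 68.3% of genes on the IEL arrays.

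Cd6 was lower in IELs by a smaller margin. The IEL arrays read 6.25, 6.18 and 7.07, the Naive-like arrays 8.16, 7.18 and 8.56, and the Type-1 arrays 7.41, 7.48 and 7.92. The groups did not overlap, but only 0.11 separated IEL replicate 3 from Naive-like replicate 2. The difference was -1.47 ± 0.35 against Naive-like and -1.11 ± 0.35 against Type-1 cells, which correspond to a 2.77-fold and a 2.15-fold lower level. These had ranks 196 and 299 from the lowest among all genes. With means of 6.50 ± 0.50 (SD, n = 3) in IELs, 7.97 ± 0.71 in Naive-like and 7.61 ± 0.28 in Type-1 cells, Cd6 stayed above every value of the unrelated tissue genes on all 9 arrays, and above 75.6% to 85.5% of genes in IELs. Cd6 was thus lower in IELs but still above those rows. How near Cd2, Cd5 or Cd6 came to silence there cannot be read from other genes' rows, which differ in probes.

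Cd2, Cd5 and Cd6 each had every IEL array below every lymph node array, as did 4.11% of all genes (9.25% against Naive-like arrays alone and 9.78% against Type-1 arrays alone). The genes were chosen with this contrast known, so nothing is read from the count.

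**Figure D1:**
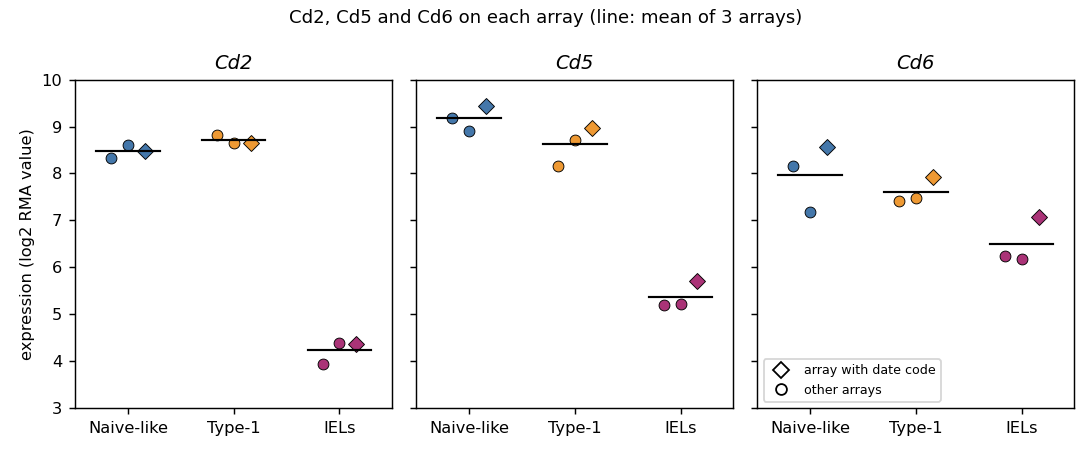
Log2 RMA value (y axis) of Cd2, Cd5 and Cd6 on each array, by subset (x axis), with the mean of 3 arrays as a line and the array whose description carries a date code as a diamond. The IEL points of Cd2 sit at 3.94 to 4.39, far below the lymph node points, while those of Cd6 reach 7.07 and nearly meet the lowest Naive-like point at 7.18.

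Type-1 and Naive-like cells share a tissue, and their contrast was not used to choose the genes, so it was tested. None of the 3 genes passed the limma test, where 0.284% of all genes did. Cd2 differed by 0.24 ± 0.20 (95% interval -0.19 to 0.67, adjusted p = 0.904), although all 3 Type-1 arrays lay above all 3 Naive-like arrays, as in 6.33% of genes. Cd5 differed by -0.56 ± 0.25 (interval -1.11 to -0.01, limma adjusted p = 0.76), and its arrays overlapped; the interval is not adjusted for the number of genes. Cd6 differed by -0.36 ± 0.35 (interval -1.12 to 0.39, limma adjusted p = 0.927), also with overlap.

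Cd5 and Cd6 deviated from their subset means together, and Cd2 did not. The correlation of the deviations over the 9 arrays was 0.81 for Cd5 with Cd6, -0.12 for Cd2 with Cd5 and -0.11 for Cd2 with Cd6. These points share arrays, and 1 array per subset (replicate 3) shares a date code in its description that the others lack. The date-coded array had the highest Cd5 and the highest Cd6 value in all 3 subsets, as in 8.67% of all genes. For Cd6 it stood 0.86 above the mean of the other arrays in IELs, 0.89 in Naive-like and 0.47 in Type-1 cells, and for Cd5 0.49, 0.40 and 0.54. For Cd2 the same gaps were 0.21, 0.02 and -0.09. Within the date-coded arrays alone the IEL to Naive-like differences were -4.10 for Cd2, -3.75 for Cd5 and -1.49 for Cd6, against -4.30, -3.84 and -1.46 among the other arrays. The IEL to Type-1 differences were -4.27, -3.28 and -0.85 within the date-coded arrays and -4.57, -3.23 and -1.24 among the others.

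Other cells and T cell content were measured on the same arrays. Cd3d, Cd3e and Cd3g, which encode invariant chains of the T cell receptor complex, differed between IELs and Naive-like cells by 0.01 ± 0.26, 0.88 ± 0.31 and 0.54 ± 0.23, none of which passed the limma test, and only Cd3g passed against Type-1 cells (0.99 ± 0.23, adjusted p = 0.0269). The Cd3g call was lost without IEL replicate 2 or 3, without Type-1 replicate 2 or 3 and when date-coded arrays were left out. Ptprc, the leukocyte phosphatase CD45, differed by -0.26 ± 0.23 and -0.33 ± 0.23. Set against the mean of the 3 CD3 genes on each array, Cd2 was lower in IELs by -4.71 ± 0.34 and -5.19 ± 0.34 against Naive-like and Type-1 cells, Cd5 by -4.29 ± 0.34 and -3.97 ± 0.34, and Cd6 by -1.83 ± 0.34 against Type-1 cells, a scale chosen after seeing the data.

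**Figure D2:**
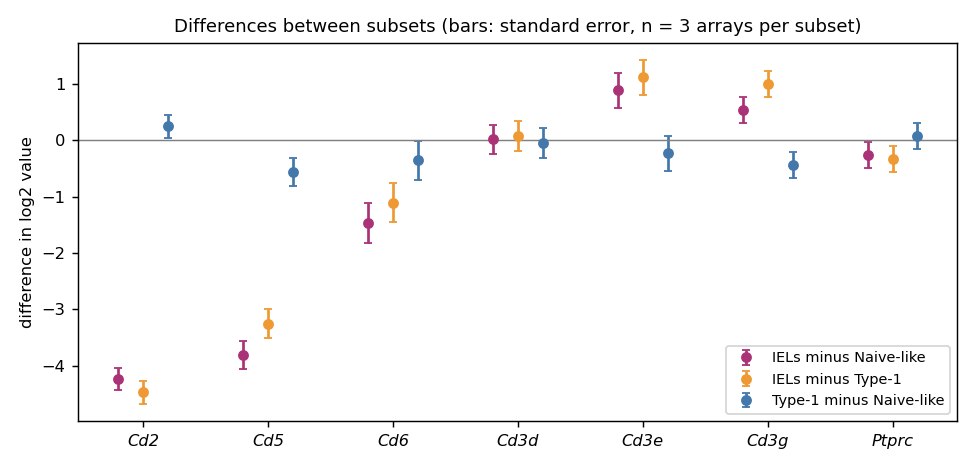
Log2 difference between subsets (y axis) for Cd2, Cd5, Cd6, the CD3 chain genes and Ptprc (x axis), with the standard error as bars and n = 3 arrays per subset. Cd2 and Cd5 sit between -4.47 and -3.25 in both comparisons with IELs, while the CD3 genes sit between 0.01 and 1.11.

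Of 30 intestinal epithelium genes none fell, and 19 rose in IELs against Naive-like cells (3.57% over all genes). Against Type-1 cells 17 of the epithelium genes rose (3.73% over all genes). Their mean log2 level ran from 5.63 to 6.43 over the IEL arrays and from 4.03 to 4.27 over the lymph node arrays, and Defa24, Fabp2, Dmbt1 and Cdh1 rose by 5.63 ± 0.31, 3.94 ± 0.36, 3.83 ± 0.49 and 3.71 ± 0.37 against Naive-like cells by the limma test. Within IELs replicate 2 had the highest epithelial mean and replicate 3 the lowest. Replicate 3 also had the highest Cd5 and Cd6 values, whereas its Cd2 value was close to that of replicate 2. The part of epithelial RNA in the 3 genes' values was not tested. Of 14 measured B cell genes none passed the limma test in any comparison (2 did in each at an unadjusted threshold of 0.05), Ms4a1 and Pax5 having log2 means of 3.03 to 3.68, and the list mean ran from 3.58 to 3.94 over all arrays. Of 13 myeloid genes 2 rose in IELs, Itgax (4.86 ± 0.29) and Itgam (0.82 ± 0.21), both of which some lymphocytes also express; the Itgam call was lost in 15 of 23 alternative settings, with any IEL or any Naive-like array left out among them. In contrast Csf1r, Adgre1 and Cd14 had log2 means of 2.58 to 4.07 in every subset. Of 5 measured genes listed for αβ T cells, Cd8b1 fell against Naive-like cells (-2.81 ± 0.47) and none passed against Type-1 cells, where Cd8b1 differed by -0.67 ± 0.47 (limma adjusted p = 0.544). Cd8b1 was bright in lymph node cells, at 10.20 to 10.50 on the Naive-like and 8.05 to 8.43 on the Type-1 arrays. Between these 2 subsets it differed by -2.14 ± 0.47 (limma adjusted p = 0.141). Cd4 had log2 means of 3.49 to 3.75.

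None of the 6 measured genes for ligands of the 3 receptors passed the limma test in any comparison. At an unadjusted threshold of 0.05, 1 did between IELs and Naive-like cells, 2 between IELs and Type-1 cells and 0 within the lymph nodes. Their median difference between IELs and Naive-like cells was 0.19, against -0.01 over all genes. Cd48, the ligand of CD2, read 11.05, 10.65 and 10.73 on the IEL arrays and between 9.31 and 10.64 on the lymph node arrays. It differed by 0.83 ± 0.29 against Naive-like (adjusted p = 0.168) and 0.37 ± 0.29 against Type-1 cells (adjusted p = 0.595). Cd48 was thus well expressed in all 3 subsets. Cd244a was kept in the same list although it encodes no ligand of the 3 but a SLAM family receptor that also binds CD48. It rose by 6.35 ± 0.23 and 4.84 ± 0.23, from 3.83 to 4.57 on the Naive-like and 5.58 to 5.88 on the Type-1 arrays to 10.30 to 10.75 on the IEL arrays, and it was higher in Type-1 than in Naive-like cells by 1.51 ± 0.23 (adjusted p = 0.0116). This last call was lost without Naive-like replicate 2 or 3, without Type-1 replicate 2 and when date-coded arrays were left out. The remaining ligand genes were dim: Alcam and Cdcp1, which encode ligands of CD6, had log2 means of 4.88 to 5.11 and 3.91 to 4.07, the CD59 genes Cd59a and Cd59b 3.21 to 3.88, and Il6, whose product has been reported to bind CD5, 2.05 to 2.28, with no call in any comparison.

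Most genes for intracellular partners, all listed for a link to CD2, CD5 or CD6, did not pass the test. Of 31 measured genes 2 rose and 3 fell in IELs against Naive-like cells (median -0.03), and 2 rose and 2 fell against Type-1 cells (median 0.14). Over all genes 3.57% rose and 1.62% fell against Naive-like cells, and 3.73% rose and 1.41% fell against Type-1 cells. By unadjusted limma p under 0.05, 14 of the 31 partner genes passed against Naive-like and 12 against Type-1 cells, in either direction. Cd2ap, which encodes the adaptor that binds the CD2 tail and orders the contact site, read 4.57, 5.43 and 5.07 on the IEL arrays, 7.18, 7.28 and 7.65 on the Naive-like arrays and 7.46, 6.48 and 7.03 on the Type-1 arrays. The IEL arrays were all below the lymph node arrays, and Cd2ap fell, with differences of -2.35 ± 0.29 (adjusted p = 0.000282) and -1.97 ± 0.29 (adjusted p = 0.00125). Ubash3a, which encodes a suppressor of T cell receptor signalling found in CD5 and CD6 complexes, read 3.90 to 4.29 in IELs and 5.68 to 6.52 in lymph node cells and fell, with differences of -2.01 ± 0.24 (adjusted p = 0.000266) and -2.23 ± 0.24 (adjusted p = 0.000136). Its paralogue Ubash3b went the other way against Naive-like cells (1.17 ± 0.29, adjusted p = 0.0375). Sh3kbp1, another adaptor of the CD2 tail, fell by 1.32 ± 0.24 against Naive-like cells (adjusted p = 0.00491), and its difference of -0.86 ± 0.24 from Type-1 cells did not pass (adjusted p = 0.0625). Pstpip1 and Cd2bp2, further CD2 tail binders, differed by -0.64 ± 0.23 and 0.25 ± 0.19 against Naive-like cells and did not pass; both were picked after their values were seen.

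The limma calls of Cd2ap and Ubash3a in both comparisons with IELs, and of Cd244a in the same comparisons, held under all 23 alternative settings. The weaker calls did not hold in all of them. Ubash3b and Fyn (0.88 ± 0.21 against Naive-like cells) and Zap70 and Ptpn11 (1.05 ± 0.25 and 1.18 ± 0.31 against Type-1 cells) were lost when array medians were subtracted. The Sh3kbp1 call was lost when date-coded arrays were left out. Leaving out IEL replicate 2 or 3 ended the calls of Ubash3b, Fyn, Zap70 and Ptpn11. With the replicate number as a block, Ptpn11 did not pass against Type-1 cells (1.18 ± 0.32, adjusted p = 0.0595) and Sh3kbp1 did (-0.86 ± 0.21, adjusted p = 0.0434). Counting ligands, Cd244a and partners together, 6 genes were called against Naive-like cells and 10 without IEL replicate 1. Against Type-1 cells 5 were called, 8 without IEL replicate 1, and 3 without IEL replicate 2, IEL replicate 3, Type-1 replicate 1 or Type-1 replicate 2. The 1 gene called between Type-1 and Naive-like cells was Cd244a.

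**Figure D3:**
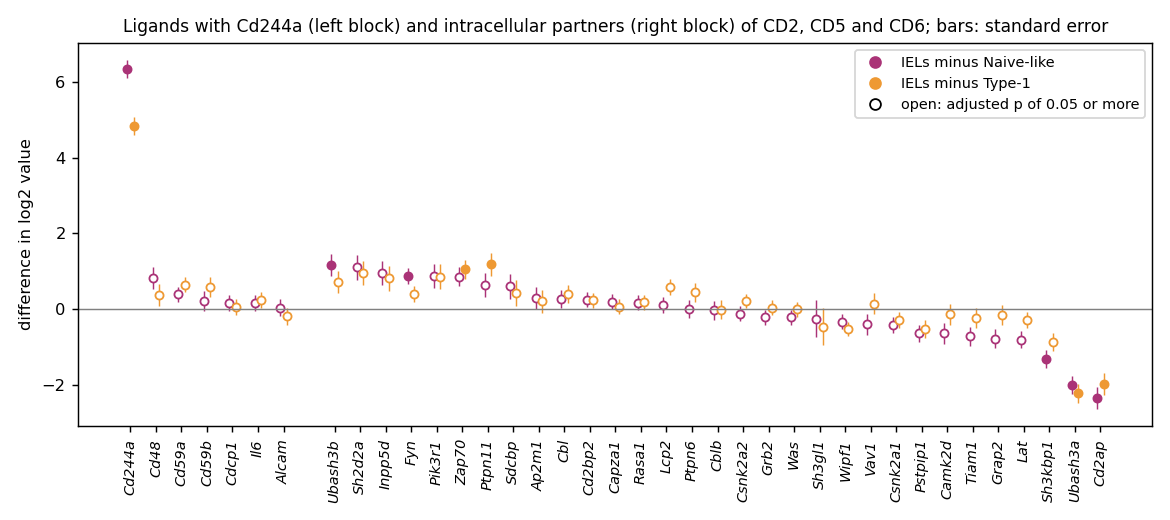
Log2 difference (y axis) between IELs and each lymph node subset for 6 ligand genes and Cd244a (left block) and 31 partner genes (right block), with standard errors and filled points for an adjusted p under 0.05. Most points lie within about 1 of zero, while Cd244a stands at 6.35 and 4.84 and Cd2ap and Ubash3a near -2.

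Relatives of the 3 genes split. Among all genes 3.57% rose and 1.62% fell in IELs against Naive-like cells, and 3.73% rose and 1.41% fell against Type-1 cells. In the scavenger receptor cysteine-rich family of CD5 and CD6, 2 of 15 other measured genes rose and 3 fell in IELs against Naive-like cells, and 2 rose and 2 fell against Type-1 cells. Those that fell against Naive-like cells were Cd163l1 (-2.37 ± 0.32) and 5830411N06Rik (-2.09 ± 0.31), which encode scavenger receptors of γδ T cells, and Prss12 (-1.68 ± 0.28), a secreted protease gene. Without date-coded arrays 1 rose and 1 fell in each comparison with IELs, the calls of Cd163l1 (adjusted p = 0.056 and 0.069) and, against Naive-like cells, of Prss12 (adjusted p = 0.083) being lost. Dmbt1, an epithelial gene that also stands in the epithelium list, rose by 3.83 ± 0.49. In the family of CD2 and the SLAM receptors, 2 of 9 other genes rose and 3 fell against Naive-like cells: Cd244a and Slamf7 (3.14 ± 0.22) rose, and Slamf6 (-3.29 ± 0.39), Ly9 (-1.88 ± 0.24) and Cd84 (-1.21 ± 0.21) fell. Against Type-1 cells 1 rose and 3 fell, the latter being Slamf6, Ly9 and Cd84. Cd48 and Cd244a belong to this family and also stand in the ligand list.

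Of 24 further T cell surface genes measured, 7 rose and 9 fell in IELs against Naive-like cells (median -0.49, against -0.01 over all genes), and 6 rose and 8 fell against Type-1 cells. For this list and the next, the shares over all genes were 3.57% higher and 1.62% lower against Naive-like cells. Against Type-1 cells those shares were 3.73% higher and 1.41% lower. Cd8a, Cd7 and Ctla4, whose products are a coreceptor chain, a costimulatory receptor and an inhibitory receptor, rose by 3.40 ± 0.44, 3.15 ± 0.27 and 2.65 ± 0.32, and the coreceptor chain gene Cd8b1 fell by 2.81 ± 0.47. Thy1, a classical T cell surface antigen, and the costimulatory receptor gene Cd28, both picked after their values were seen, fell, with differences of -2.58 ± 0.19 and -1.90 ± 0.26 against Naive-like cells and -2.11 ± 0.19 and -1.83 ± 0.26 against Type-1 cells. Of 13 measured genes for the receptor complex and general T cell identity, 1 rose and 3 fell against Naive-like cells (median -0.19), whereas 3 rose and 1 fell against Type-1 cells (median -0.21). Cd3g, Zap70 and Trat1 (3.11 ± 0.22) rose and Sh2d1a (-2.70 ± 0.28) fell in the latter. Without date-coded arrays 1 rose and 1 fell in each comparison with IELs. Against Naive-like cells Sh2d1a, the adaptor of SLAM receptors, fell (-2.16 ± 0.28), as did Sit1 (-1.45 ± 0.37) and the transcription factor gene Bcl11b (-1.11 ± 0.26), while the receptor-associated gene Trat1 rose by 1.49 ± 0.22. The Sit1 call was lost without any 1 IEL array, without Naive-like replicate 1 or 3 and without Type-1 replicate 3, and the Bcl11b call without IEL replicate 1 or any 1 Naive-like array.

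Position was not used to choose the genes. Cd5 and Cd6 are adjacent protein-coding genes in the RefSeq table, and none of the 11 measured neighbours among the 6 on each side of the pair passed the limma test in any comparison, nor was any under an unadjusted p of 0.05 (0 of 11). Their differences between IELs and Naive-like cells ran from -0.35 to 0.46, and Vps37c, next to Cd5, differed by 0.40 ± 0.27. The lower values of Cd5 and Cd6 in IELs were thus not seen in the measured genes around them, but most of these were dim. Only Vps37c, Prpf19, Ddb1 and Cyb561a3 had Naive-like means of 5.98 to 6.58. The others had means of 3.68 to 5.17, inside the range of the unrelated tissue genes (2.36 to 5.71). A fall in these could hardly have shown. Around Cd2, 10 of 12 neighbours were measured. Over all genes 3.57% rose in IELs against Naive-like and 3.73% against Type-1 cells. Of the 10 Cd2 neighbours, 2 rose in both comparisons with IELs, while none fell. These were Cd101, an inhibitory receptor gene of the immunoglobulin family (2.31 ± 0.30 and 1.79 ± 0.30), and the transporter gene Slc22a15 (2.24 ± 0.27 and 1.72 ± 0.27). Cd101 stands 3 genes from Cd2 and Slc22a15 stands 4 genes away on the other side. The Cd101 call against Type-1 cells was lost when date-coded arrays were left out (limma adjusted p = 0.057).

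**Figure D4:**
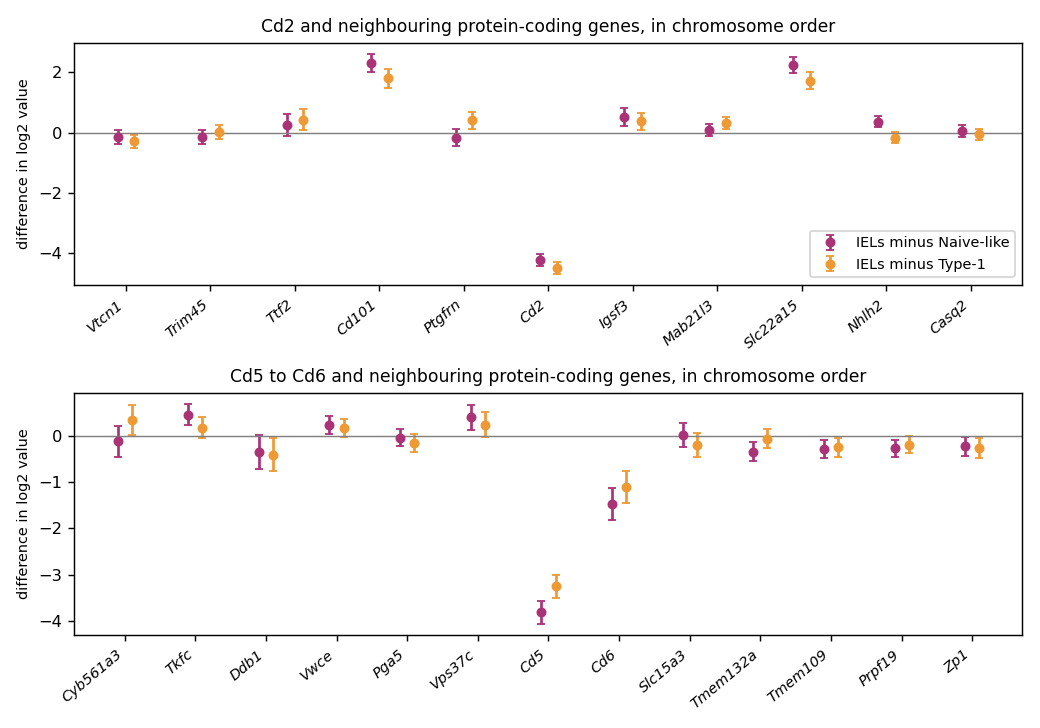
Log2 difference (y axis, standard errors as bars) between IELs and each lymph node subset for Cd2 (top) and for Cd5 and Cd6 (bottom) with their measured protein-coding neighbours in chromosome order (x axis, not to scale of distance). Cd5 at -3.81 and Cd6 at -1.47 lie below the values of their neighbours (-0.41 to 0.46), most of which were dim in lymph node cells. Cd101 and Slc22a15 lie above zero beside Cd2.

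Among 10308 other genes brighter than the median of all genes, the closest in pattern were sought by the root mean square difference of centred log2 values over the 9 arrays. Nearest to the mean profile of the 3 genes were Dnah8 (0.204), Cd55 (0.248), Aff3 (0.257), Lef1 (0.294), Myb (0.300), Slamf6 (0.322), Usp18 (0.355) and Satb1 (0.358). For comparison, Cd5 itself stood at 0.286 from that mean, Cd2 at 0.689 and Cd6 at 0.866. Cd2 and Cd6 thus lay farther from that mean than all 8 of those genes did, and the distance between Cd2 and Cd6 was 1.539.

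Each of the 3 genes was also searched alone. The distance counts the size of the fall in IELs, which was known when the genes were chosen and differed among them. Cd6 stood 1.539 from Cd2 and 1.091 from Cd5, too far to share any gene listed here with them. Nothing is read from the lists being separate. Cd2 was nearest to S100a6 (0.239), Ms4a4b (0.337) and Cmah (0.417), whose IEL to Naive-like differences were -3.95 ± 0.19, -3.78 ± 0.20 and -4.11 ± 0.26. Like Cd2, these were as high in Type-1 as in Naive-like cells or slightly higher by their means. Cd5 was nearest to Lef1 (0.291), Cd55 (0.321) and St6gal1 (0.370), with differences of -3.50 ± 0.25, -3.37 ± 0.20 and -3.86 ± 0.29; their Type-1 to Naive-like differences were -0.87, -0.06 and -0.73, beside -0.56 for Cd5. Cd6 was nearest to Abhd8 (0.231), Add3 (0.271) and Cnga1 (0.279), with differences of -1.18 ± 0.32, -1.56 ± 0.26 and -1.56 ± 0.25. Of these, Lef1 encodes a transcription factor of naive T cells, Cd55 a complement regulator, Cmah and St6gal1 enzymes of sialic acid metabolism and Add3 a protein of the membrane skeleton.

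**Figure D5:**
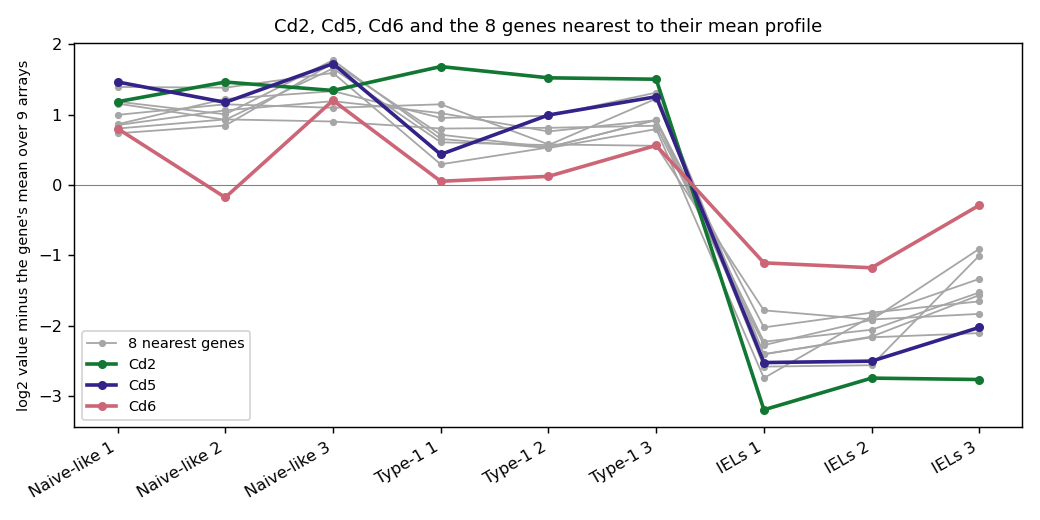
Log2 value minus the gene's mean over 9 arrays (y axis) on each array (x axis) for Cd2, Cd5, Cd6 and the 8 genes nearest to their mean profile (grey). The grey lines run between those of Cd2 and Cd6 in IELs, and the Cd5 line lies within or near them, at a distance of 0.286 from the mean profile.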

How the data were processed

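Log2 expression values of 41345 array rows were deposited for the 9 arrays (Affymetrix Mouse Gene 2.0 ST). Background correction, normalization between arrays and probe summaries are part of RMA, which the submitters' processing notes name together with oligo, without versions or a genome build. Symbols came from the array platform's annotation: 22180 genes had a row of 1 symbol, and the row of highest mean stood for each. Sample titles gave the subsets. Differences came from limma 3.58.1 in R 4.3.3, with 1 mean per subset, all 9 arrays in the fit, and two-sided p-values adjusted by Benjamini-Hochberg over 22180 genes at 0.05. The fit was tested on simulated data. Same-numbered arrays of Type-1 and IELs had positive correlations of their deviations from subset means (0.161, 0.104 and 0.303), the largest for replicate 3. They may be pairs, but no label says so and pairing was not tested. For Naive-like arrays not every correlation passed 0.1 (-0.015 to 0.382), though the best match shared the number in 13 of 18 cases over all subsets, and replicate 3 arrays share a date code.

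The members and lists were chosen with earlier results of these data known. Of each list up to 4 genes of largest difference that passed against Naive-like cells are named, with all ligands, neighbours that passed and the genes nearest in pattern. Fyn, Zap70, Ptpn11, Cd84, Ikzf1, Runx3, Tcf4 and other names outside this rule were chosen after their values were seen. Promoter letters are given for 198 bases in place of the 250 first planned, since the bases beyond them lie inside the annotated gene. In 250 bases the Cd5 entry held 4 ETS cores, 2 E-boxes and 1 RUNX match. At least 1 ETS core occurred in 93.4% of windows of that length. Python 3.11.15, pandas 2.3.3, numpy 2.4.6 and matplotlib 3.10.9 were used. The precision is limited by the number of arrays.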

Additional observations from a re-analysis of the deposited data

How the results depend on the processing

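The differences of Cd2, Cd5 and Cd6 kept their sign, and the tested ones their side of the threshold, in all 23 alternatives and on a scale relative to CD3 genes. That scale was chosen after seeing the data, as was leaving out the 2 arrays of lowest weight (replicate 1 of IELs, replicate 3 of Type-1). On the CD3 scale the IEL differences from Naive-like and Type-1 cells moved to -4.712 and -5.194 for Cd2 and -4.286 and -3.968 for Cd5, and that of Cd6 from Type-1 cells to -1.828. Over all genes, calls between IELs and Naive-like cells numbered 1920 with array weights and 534 without date-coded arrays; between IELs and Type-1 cells they numbered 565 without date-coded arrays and 724 to 1308 with 1 array left out. Within the lymph nodes they numbered 20, 34 to 87, and 110 without the 2 arrays (46 higher and 64 lower, against 47 and 16). Ligand and partner calls against Naive-like cells numbered 11 with weights, 3 without date-coded arrays, 4 to 10 with 1 array left out and 11 without the 2 arrays. Against Type-1 cells they numbered 3 with medians subtracted, 8 with weights, 3 with only the subsets compared, 3 without date-coded arrays, 3 to 8 with 1 array left out and 10 without the 2 arrays; within the lymph nodes they numbered 0 without date-coded arrays and 0 to 1 with 1 array left out. Fits without arrays have fewer samples; otherwise the cause was not tested. With the replicate number as a block 1378, 1405 and 81 genes were called, in the same order of comparisons. Cd2, Cd5 and Cd6 were tested only between Type-1 and Naive-like cells, and none of them passed there with that block either. Dim rows have only compressed differences, and no detection calls were used here.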

Other observations

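Genes that follow the strength of T cell receptor signalling did not move as one. Of 12 measured, 4 rose and 2 fell in IELs against Naive-like cells (median 0.72, against -0.01 over all genes), and 6 rose and 2 fell against Type-1 cells. Over all genes 3.57% rose and 1.62% fell against Naive-like cells, and 3.73% rose and 1.41% fell against Type-1 cells. Without date-coded arrays 1 of the 12 rose and 0 fell against Naive-like cells, and 4 rose and 1 fell against Type-1 cells. The immediate early receptor genes Nr4a1 and Nr4a3 rose by 2.12 ± 0.36 and 2.06 ± 0.52 against Naive-like cells and the transcription factor gene Irf4 by 1.91 ± 0.19, while Id3, an inhibitor of E proteins, fell by 1.66 ± 0.34. The Nr4a3 call was lost in 10 of 23 alternative settings, among them without IEL replicate 2 or 3 and without Naive-like replicate 1 or 3. The Id3 call was lost without IEL replicate 3 or Naive-like replicate 3, and the Nr4a1 and Id3 calls when date-coded arrays were left out. In the same arrays Cd5, which is known to follow receptor signalling during T cell development, was 14.0-fold lower in IELs than in Naive-like cells. Cd5 was chosen with that difference known, and a link between it and these genes was not tested. IELs alone were shaken at body temperature during isolation, and the part of that step in the immediate early genes was not tested.

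Of 19 measured genes for transcription factors known from T cell gene regulation, 5 fell and none rose in IELs against Naive-like cells, namely Lef1 (-3.50 ± 0.25), Myb (-3.30 ± 0.32), Id3, Bcl11b (-1.11 ± 0.26) and Ikzf1 (-1.06 ± 0.22). With array weights 2 rose. The shares over all genes were 1.62% lower and 3.57% higher against Naive-like cells, and 1.41% lower and 3.73% higher against Type-1 cells. Against Type-1 cells 2 fell and 2 rose (median 0.07): Lef1 (-2.62 ± 0.25) and Myb (-2.64 ± 0.32) fell, and Runx3 (1.12 ± 0.25) and Tcf4 (1.17 ± 0.23) rose. The Runx3 and Tcf4 calls were lost without IEL replicate 2 or 3, and that of Runx3 also without Type-1 replicate 1. Without date-coded arrays 2 of the 5 genes' calls against Naive-like cells were left, and against Type-1 cells 2 fell and 0 rose. The Ikzf1 call was lost without Naive-like replicate 2, and the Bcl11b call without IEL replicate 1 or any 1 Naive-like array. The ETS family genes Ets1, Elf1 and Fli1, whose core letters were marked in the Cd5 promoter, had log2 means of 7.68 to 10.54 in every subset, and their differences between IELs and Naive-like cells were 0.01 ± 0.21, 0.36 ± 0.23 and -0.06 ± 0.23, none of which passed the limma test. These 3, Ikzf1, Runx3 and Tcf4 were picked after their values were seen. Id3, Gata3 and Bcl11b each stand in another list too.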
